A study of Gallus gallus with 40 samples.

Results

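The genes described here encode the enzymes of glycolysis and of glycogen synthesis and breakdown in chicken breast muscle, together with the regulators PFKFB and phosphorylase kinase and the gluconeogenic fructose bisphosphatases. They were chosen by gene symbol: 33 genes were listed, 30 of them had at least 1 probe on the array, and these 30 were represented by 52 of 56401 probes, of which 25956 carried a gene symbol. No probe was matched to PFKL, PFKFB1 or PHKG2. The abundance of each gene is given by 1 probe, that with the highest mean signal among those that passed the quality filter.

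RNA of the pectoralis major, the large fast-twitch breast muscle, of commercial Ross broilers had been hybridized to 40 one-color arrays in 2 studies of breast meat defects. White striping (WS) is seen as white lines along the muscle fibers, and wooden breast (WB) as hardened breast muscle. The WS study held 4 non-WS, 7 mild WS, 6 moderate WS and 4 severe WS arrays. The non-WS group is named by the labels alone: the study's own account of its birds states that it found none free of WS, so the origin of these arrays is not given in the sources used here. The WB study held 8 severe WB and 11 non-WB arrays in 3 pairs of groups: severe WB with mild WS (n = 2) against non-WB with mild WS (n = 3), both at 49 d, severe WB with moderate WS (n = 3) against non-WB with moderate WS (n = 4), both at 49 d, and severe WB with mild WS (n = 3) against non-WB with severe WS (n = 4), both at up to 45 d. In the last pair the WS level differs as well as WB, and all WB and non-WB samples carry some WS, so the non-WB arrays are not a defect-free control. No ages are given for the WS arrays in the labels, and no farm is given for any array although the flocks came from several. The study's account describes its mild, moderate and severe WS birds as 7-week-old males. It covers fewer mild WS arrays than are held here. The labels number the samples as replicates without saying that each came from a different bird, so p-values measure the spread between these samples. In whole muscle, fewer cells of a type and less RNA per cell cannot be told apart.

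Muscle stores glucose as glycogen. Phosphorylase releases it as glucose 1-phosphate after activation by phosphorylase kinase, phosphoglucomutase turns this into glucose 6-phosphate, and glycolysis carries it to pyruvate, which lactate dehydrogenase reduces to lactate. Broiler breast is made almost wholly of fast glycolytic fibers and relies on this route. Several steps are served by isozymes of different genes, and the forms that dominate in fast muscle of mammals (PFKM, LDHA, FBP2, PHKA1, PHKG1, HK2) are set here beside the forms better known from other tissues (among them PFKP, LDHB, ALDOC, ENO1, ENO2, PYGL and FBP1).

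Transcripts of 4 members, PHKB, LDHA, PFKFB4 and TPI1, were also targets of quantitative PCR primers in the study. The primers of PHKB and LDHA are shown because they identify transcripts of PHKB, the member with the lowest p in WB, and of LDHA, which is set against LDHB below. The LDHA primers belong to the transcript of the LDHA probe described here, and the PHKB primers to the transcript of another PHKB probe.
PHKB forward: gcacggtgtagtaattgttgc
PHKB reverse: gggcactttgtgtctctaatg
LDHA forward: ttctctgccagctgaatagctt
LDHA reverse: cgggtcattgtcttgttgcat

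Of the 30 genes, 29 passed the filter in the WB study and 28 in both studies. GYS2, the liver form of glycogen synthase, was not well above background on any WS array and was so on 1 WB array, so it has no value here. ENO2, the enolase of neurons, passed only in the WB study and was well above background on 20 of 21 WS arrays. No spot was saturated. Median processed signal lay between 122 and 298 on severe WB arrays (median 209), against 124 to 179 on non-WB arrays (median 160), and all severe WB arrays lay at positions 1 to 3 of their slides, against positions 3 to 7 for non-WB. Within a slide, position and WB cannot be told apart. Intensities are quantile-normalized within each study, linear unless log2 is stated, and a gene was called a differentially expressed gene (DEG) at FDR of 0.05 or less and |FC| of 1.2 or more in limma, with the slide in the model. Non-WB replicate 4 with moderate WS and non-WB replicate 4 with severe WS lay on the slide of the 49 d mild WS pair. The other arrays of their groups lay on other slides. The slide term fits both exactly, so they add nothing to the WB fold changes, although they are in the printed intensities. A fit that leaves either out drops no array from these fold changes.

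Over the 3 WB pairs together, 18 of 29 members were DEGs, 8 with higher and 10 with lower abundance in severe WB. Of all 34518 probes tested 23.3% were DEGs in this comparison, 11.5% with higher and 11.7% with lower abundance. At an unadjusted p of 0.05 with the same |FC|, 36.5% of probes passed, and 8 members higher and 11 lower. The median log2 fold change of the members was -0.18, and that of all probes -0.01. Lower in severe WB were 3 subunits of phosphorylase kinase (PHKB, PHKA1 and PHKG1), PGM1, GPI, PFKM, PGK1, PKM, LDHA and FBP2. Higher were PFKP, ALDOC, ENO1, ENO2, LDHB, PGM2, PYGL and FBP1. Among forms dominant in mammalian fast muscle, 5 of 6 measured were lower and none higher, and among forms better known from other tissues 7 of 11 were higher and none lower. Of the 12 remaining genes 5 were lower and 1 was higher. The class of fast-muscle forms holds no aldolase, enolase or glycogen phosphorylase, so for these steps the classes do not compare forms of the same step. Signal level differed as well. Non-WB median intensity ran from 14752 (PHKB) to 293427 (PHKG1) in lower DEGs, and from 153 (ENO2) to 27647 (ENO1) in higher DEGs. The part of signal level in the class counts was not tested. With the median signal of each array as a covariate none of the 29 members was a DEG (0.351% of probes were). That fit held slide and WB status but not age or WS level. In the mean of the other pairs, without both severe WB arrays of the 49 d mild WS pair, no member and no probe was a DEG. Without the first of these arrays alone 11 members were DEGs, and 11.7% of probes.

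**Figure D1:**
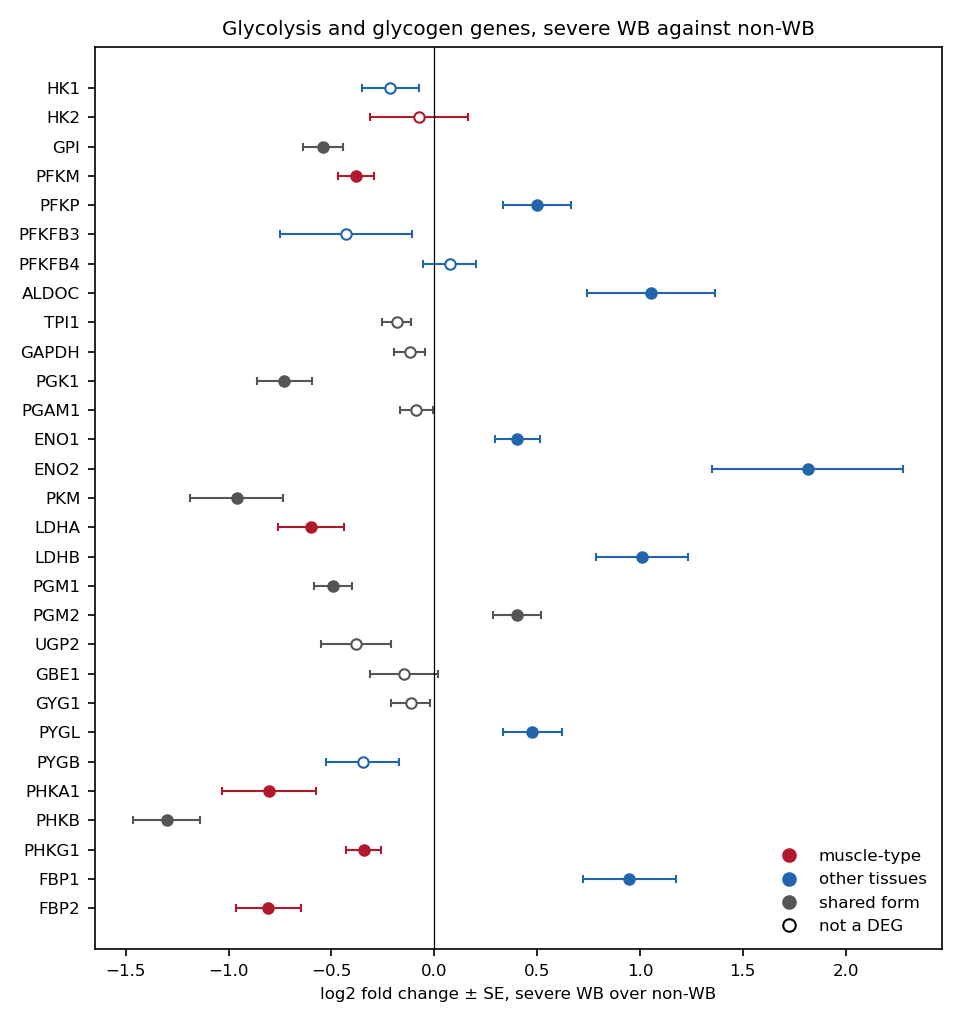
Log2 fold change of severe WB over non-WB arrays (x axis, with SE) for each of 29 members, in pathway order down the page. Filled points are DEGs, colors mark forms dominant in mammalian fast muscle, forms better known from other tissues and shared forms, and PHKB at -1.30 and ENO2 at 1.82 mark the ends of the range.

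Phosphorylase kinase switches glycogen phosphorylase on, and PHKB had the lowest p of the members. PHKB, its regulatory beta subunit, had a lowest, median and highest intensity of 2287, 7124 and 12891 in severe WB, against 12432, 14752 and 17204 in non-WB. All but the highest severe WB values, 12753 and 12891, lay below every non-WB array. On the log2 scale the difference was -1.30 ± 0.16 (SE, adjusted p = 0.00257), and the other 2 PHKB probes gave -1.25 and -1.52. PHKA1, the muscle alpha subunit, had 12194, 20907 and 43526 in severe WB and 24054, 44127 and 53303 in non-WB, a log2 fold change of -0.80 ± 0.23 (adjusted p = 0.0254), called in 15 of 19 fits that each left out an array. PHKG1, the muscle catalytic gamma subunit, spanned 196018 to 293427 in severe WB and 275613 to 312294 in non-WB, with -0.34 ± 0.09 on the log2 scale (adjusted p = 0.0171). A second PHKG1 probe gave -0.24 and was not called, its |FC| being under 1.2.

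Among the members, glycogen phosphorylase itself was represented by PYGL, best known from liver, and PYGB, best known from brain. The further phosphorylase gene PYGM and the further synthase gene GYS1 are not members, so the member values do not describe them. Both are on the list of 27 other enzymes counted below, of which 20 had a probe and 13 were tested. Whether PYGM or GYS1 was among those tested is not given here. PYGL had 2873, 4710 and 6259 as lowest, median and highest in severe WB, against 2611, 3327 and 4090 in non-WB, a log2 fold change of 0.48 ± 0.14 (adjusted p = 0.0312). The call stood in 10 of 19 fits that each left out an array. PYGB was not called (-0.35 ± 0.18, adjusted p = 0.16). PGM1, the phosphoglucomutase of muscle, spanned 58008 to 112680 in severe WB and 100566 to 124999 in non-WB (-0.49 ± 0.09, adjusted p = 0.00719), and PGM2, a related phosphopentomutase, was higher by 0.40 ± 0.12 (adjusted p = 0.0273), called in 12 of 19 fits that each left out an array. The genes of glycogen synthesis UGP2, which makes UDP-glucose, GBE1, the branching enzyme, and GYG1, the primer glycogenin, were not called, with log2 fold changes of -0.38, -0.15 and -0.11 at the probes with the highest signal. A second UGP2 probe was a DEG, at -0.56 ± 0.19 (adjusted p = 0.044).

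At the entry to glycolysis HK1 and HK2, which phosphorylate glucose, were not called (-0.21 ± 0.14 and -0.07 ± 0.24). HK2 had 134, 194 and 367 in severe WB and 126, 209 and 389 in non-WB, so its groups overlapped. GPI, which interconverts the hexose phosphates, spanned 42683 to 99830 in severe WB and 80797 to 107255 in non-WB, and was lower by a log2 fold change of -0.54 ± 0.10 (adjusted p = 0.00686).

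PFKM, the muscle phosphofructokinase that sets the pace of glycolysis, had 112261, 150507 and 189641 in severe WB, against 177851, 190481 and 200082 in non-WB (-0.38 ± 0.09, adjusted p = 0.0129). PFKP, the platelet form, had 1593, 2548 and 3427, against 1462, 1687 and 2628 (0.50 ± 0.17, adjusted p = 0.0436). The PFKP call stood in 7 of 19 fits that left out an array. Its probe was named only through the study's list of DEGs between WS levels. PFKFB3 and PFKFB4 make the phosphofructokinase activator fructose 2,6-bisphosphate. PFKFB4 was not called at the probe with the highest signal (0.07 ± 0.13), which was named only through the study's tables. Of its 7 probes 5 were called, at 0.37 to 0.39, all named by symbol, and the 7 ranged to 0.49.

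ALDOC, an aldolase best known from brain, had a lowest, median and highest intensity of 15756, 69904 and 87477 in severe WB and 20436, 27046 and 42128 in non-WB. Its log2 fold change was 1.06 ± 0.31 (adjusted p = 0.0286), and the call stood in 12 of 19 fits that each left out an array. The lowest severe WB value was below all non-WB arrays and 6 of the 8 were above all of them. The steps after aldolase were mixed. TPI1, GAPDH and PGAM1 were not called, at -0.18, -0.12 and -0.09, and PGK1, which makes the first ATP of glycolysis, had 82780, 149722 and 235806 in severe WB, against 219741, 235806 and 254864 in non-WB (-0.73 ± 0.13, adjusted p = 0.00691). PGK1 is listed by the annotation only as a synonym of the symbol PGK2. Quantile normalization gives every array of a study the same set of values, so the brightest probes take a few shared values by rank. Such values are 235806 for PGK1 and 293427 for PHKG1, each the severe WB highest and the non-WB median. Ranges at this level therefore move in steps.

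ENO1 and ENO2 encode enolases. ENO2 had 109, 716 and 1332 in severe WB and 77.1, 153 and 386 in non-WB, the largest log2 fold change of the members at 1.82 ± 0.46 (adjusted p = 0.0176). ENO1 had 23590, 34194 and 48096 in severe WB and 23076, 27647 and 35695 in non-WB (0.40 ± 0.11, adjusted p = 0.0224). Of the 3 ENO1 probes 2 were called and the other, at 0.30, was not (adjusted p = 0.0534). PKM, the pyruvate kinase of muscle, had 67984, 90767 and 231415 in severe WB and 137720, 202563 and 275613 in non-WB (-0.96 ± 0.23, adjusted p = 0.0139), and its other 2 probes gave -0.88 and -0.89. The annotation lists PKM only as a synonym of the symbol PKLR.

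The subunits of lactate dehydrogenase moved in opposite directions. LDHA, the muscle subunit, had 51850, 105599 and 147748 in severe WB and 102484, 148431 and 180691 in non-WB (-0.60 ± 0.16, adjusted p = 0.021). A second LDHA probe gave -0.11 and was not called. LDHB, the subunit of heart and other oxidative tissues, had 10400, 29926 and 47615 in severe WB and 11085, 13675 and 19380 in non-WB (1.01 ± 0.22, adjusted p = 0.0118).

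FBP2 and FBP1, the fructose bisphosphatases of muscle and liver, also moved in opposite directions. FBP2 had 18501, 40384 and 72728 in severe WB and 54090, 61758 and 72502 in non-WB (-0.81 ± 0.16, adjusted p = 0.00844). FBP1 had 719, 1648 and 3908 in severe WB, against 599, 889 and 1577 in non-WB (0.95 ± 0.22, adjusted p = 0.0139).

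**Figure D2:**
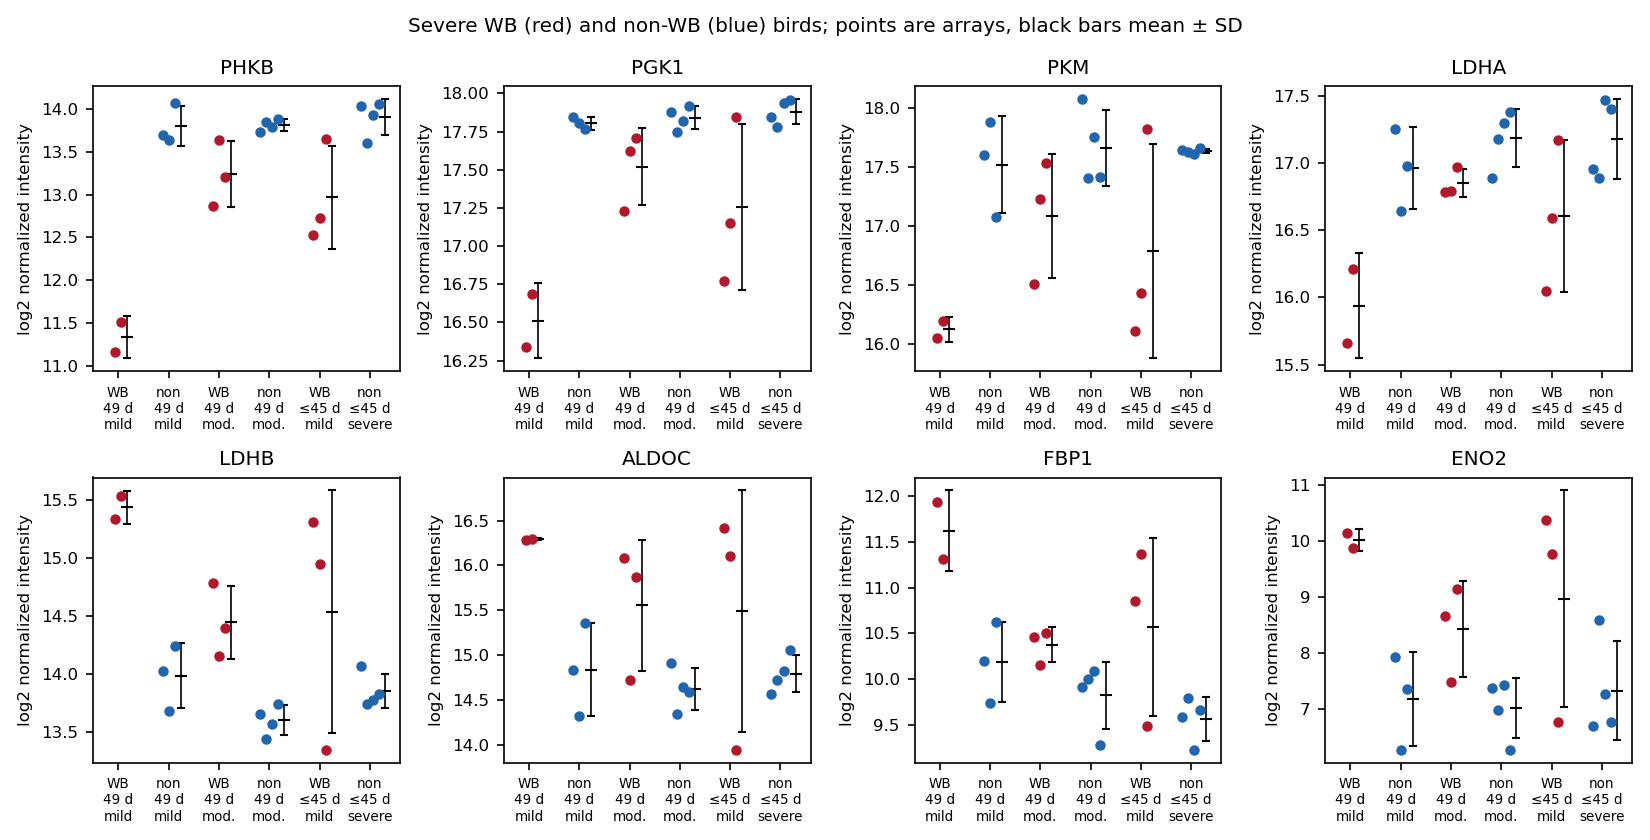
Log2 normalized intensity (y axis) of 8 members by group, each severe WB group (red) left of its non-WB group (blue); points are arrays and black bars the mean ± SD. In severe WB, PHKB, PGK1, PKM and LDHA lie low and LDHB, ALDOC, FBP1 and ENO2 high in most arrays, with replicate 3 at up to 45 d beside the non-WB arrays.

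The change of isozyme within an array was tested on the log2 ratio of the 2 probes, permuting WB labels within slides (exact, two-sided, 8400 permutations). The slide of the 49 d mild WS pair also held non-WB arrays of the other pairs. Age and WS level were thus not held fixed there. The ratio of 2 probes has no absolute meaning, so only its difference between groups is read. LDHB over LDHA was -1.80 ± 1.2 in severe WB (SD, n = 8), against -3.33 ± 0.37 in non-WB (SD, n = 11), a difference within slides, weighted by their severe WB arrays, of 1.56 (exact p = 0.000952, 0.00143 adjusted over 3 ratios). It lay above every non-WB array in 7 of 8 severe WB arrays, and in replicate 3 at up to 45 d it was -3.83, below all of them. PFKP over PFKM was -5.90 ± 0.58 in severe WB and -6.72 ± 0.24 in non-WB, a difference within slides of 0.82 (exact p = 0.000952, adjusted 0.00143). HK1 over HK2 did not pass the test (difference -0.10, exact p = 0.64). Permuting within slides does not separate WB from slide position or array signal. Non-WB medians were 13675 for LDHB and 148431 for LDHA, and 1687 for PFKP and 190481 for PFKM. The ratios were not run with array signal as a covariate, so its part in them was not tested.

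**Figure D3:**
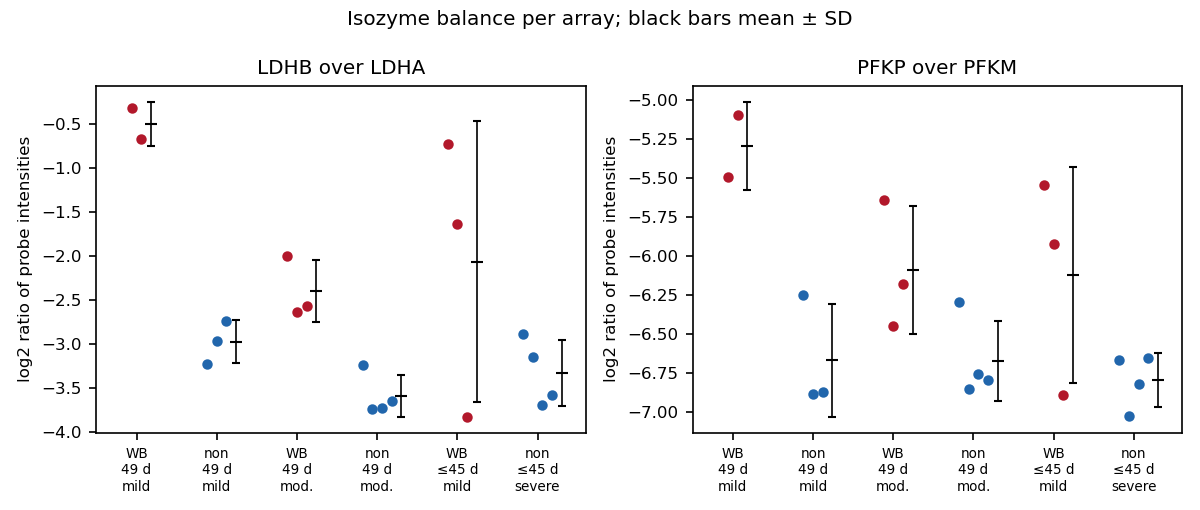
Log2 ratio of probe intensities (y axis) of LDHB over LDHA and PFKP over PFKM by group, severe WB (red) left of its non-WB group (blue), points being arrays and bars the mean ± SD. Both severe WB arrays at 49 d with mild WS have LDHB over LDHA of -0.32 and -0.68, and replicate 3 at up to 45 d lies at -3.83, below every non-WB array.

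The 3 pairs differed in how many members passed the test. In the 49 d pair with mild WS 12 of 29 members were DEGs, 2 higher and 10 lower, where 10.6% of probes were DEGs, 4.67% higher and 5.89% lower. Their leaders were PHKB, with 2287 and 2911 in severe WB against 13260, 12733 and 17204 in non-WB (log2 fold change -2.47 ± 0.30, adjusted p = 0.00312), and GPI, PGK1, FBP2 and PGM1 at -1.01, -1.29, -1.50 and -0.86. The higher DEGs were LDHB, with 41473 and 47615 against 16690, 13141 and 19380 (1.46 ± 0.41), and FBP1, with 3908 and 2543 against 1171, 855 and 1577 (1.44 ± 0.42). PFKFB3 was a DEG here, with 5055 and 2323 against 30473, 25341 and 13802 (-2.68 ± 0.60, adjusted p = 0.021). PFKM, PHKG1, LDHA and PKM completed the 12, at -0.72, -0.59, -1.02 and -1.39. The count was 0 without severe WB replicate 1, 1 without severe WB replicate 2, 5 without non-WB replicate 1 and 1 without non-WB replicate 2. It was 19 without severe WB replicate 3 at up to 45 d, which shares the fit. Shares of all probes are not set beside these counts, so they are not shown to be particular to the members.

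In the 49 d pair with moderate WS no member was a DEG, and 0% of probes were (2 members passed an unadjusted p of 0.05 with |FC| 1.2, against 12.1% of probes). PFKFB3 had 8444, 14879 and 18740 in severe WB against 4602, 2855, 11493 and 8899 in non-WB, a log2 fold change of 1.32 ± 0.53 (adjusted p = 0.379), with the opposite sign to the mild pair and 0.87 without non-WB replicate 2. The difference between both 49 d pairs was -4.00 ± 0.80 for PFKFB3 and -1.92 ± 0.40 for PHKB, with adjusted p of 0.188 and 0.191, and 0% of probes passed (11.3% at an unadjusted p of 0.05 with |FC| 1.2, and 8 members). LDHB had 28210, 18271 and 21516 against 12880, 11085, 12142 and 13657 (0.89 ± 0.37, adjusted p = 0.383), and its groups did not overlap. Probes whose groups do not overlap were not counted over the whole array. PHKB had 7474, 12753 and 9452 against 13554, 14752, 14150 and 15087 (-0.55 ± 0.27, adjusted p = 0.427).

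At up to 45 d no member and 0% of probes were DEGs, and 9 members passed the unadjusted threshold, against 10.8% of probes. PHKB had 5910, 6774 and 12891 in severe WB and 16815, 12432, 15581 and 17040 in non-WB (-0.89 ± 0.27, adjusted p = 0.433). FBP1 had 1846, 2645 and 719 against 766, 889, 599 and 809 (1.03 ± 0.37, adjusted p = 0.433), and PGK1 had 111984, 145575 and 235806 against 235806, 225353, 250948 and 254864 (-0.60 ± 0.22, adjusted p = 0.433). FBP1 was at 0.64 without severe WB replicate 2 and 1.57 without severe WB replicate 3, and PGK1 at -0.36 without severe WB replicate 1 and -0.89 without severe WB replicate 3. Without severe WB replicate 3, 13 members were DEGs and so were 12.4% of probes. The WB difference at up to 45 d did not pass the test against that at 49 d for any member, and 0% of probes passed (4.21% at an unadjusted p of 0.05, and no member).

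The severe WB arrays differed among themselves. Over the 18 member DEGs, chosen with these arrays, 17 and 18 lay outside the range of all 11 non-WB arrays in the 49 d mild WS arrays, 14, 2 and 9 in the 49 d moderate WS arrays and 18, 17 and 1 in the arrays at up to 45 d. The same count over all DEG probes was not made, so these counts are not shown to be particular to the members. Replicate 3 at up to 45 d had ALDOC of 15756 and LDHB of 10400, both below every non-WB array although these genes were higher in severe WB, and PKM of 231415, within the non-WB range. In the same array the summed macrophage markers were the lowest of the 19 arrays, at 125936, and the summed fibroblast and matrix markers ranked 17 from the top, at 227302. Its median processed signal, at 122, was also the lowest of the 19. In the order of the counts above, this signal was 273 and 298, then 218, 158 and 170, then 201, 238 and 122. The part of signal in these counts was not tested.

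**Figure D4:**
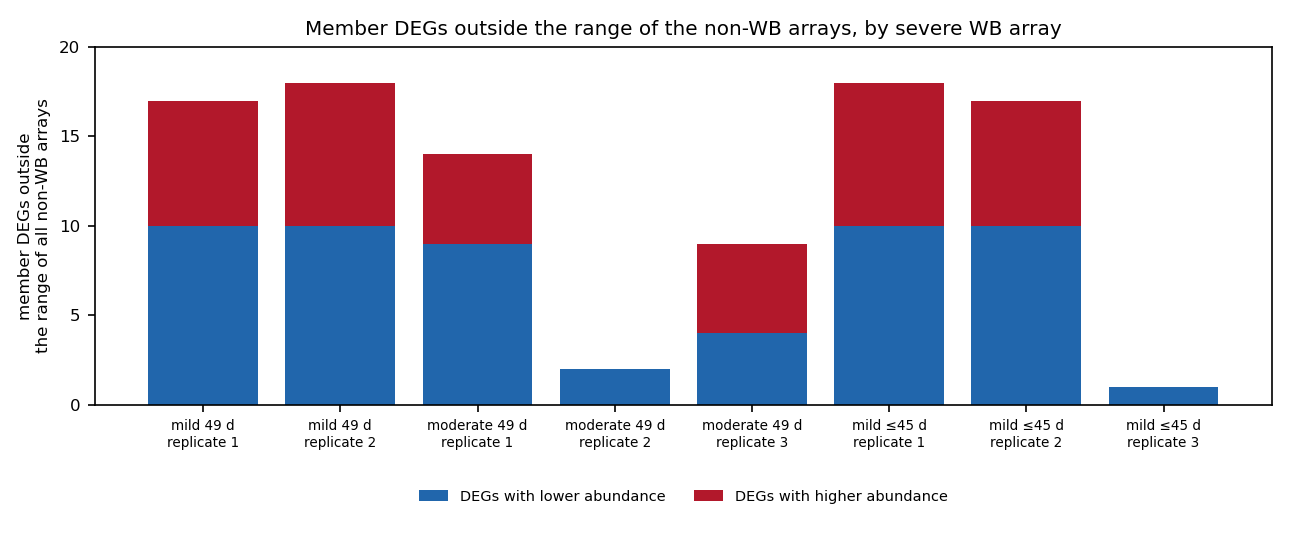
Number of the 18 member DEGs (y axis) that lie outside the range of all non-WB arrays in the direction of the DEG, for each severe WB array (x axis), split into lower (blue) and higher (red) DEGs. Counts span 1 to 18, and the same count over all DEG probes was not made.

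Markers of cell types were counted in the comparison over all WB pairs, where 11.5% of all probes were higher and 11.7% lower. Of 8 macrophage markers tested 7 were DEGs with higher abundance in severe WB, as were 7 of 9 fibroblast and matrix markers and 4 of 8 markers of regenerating muscle, none of these 3 lists having a lower DEG. Summed macrophage markers spanned 125936 to 341944 in severe WB and 132203 to 209733 in non-WB. Summed fibroblast and matrix markers spanned 227302 to 603252 in severe WB, against 210311 to 345828 in non-WB. Summed fast fiber markers spanned 793468 to 993303 in severe WB, against 958156 to 1082610 in non-WB, with 3 of 6 DEGs, all lower. Of 5 slow fiber markers 2 were higher and 1 was lower. Endothelial markers had 2 lower DEGs of 5, adipocyte markers 1 higher of 5 and erythrocyte markers 1 higher of 5. The part of these cells in the member results was not tested.

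Genes next to the members were counted in the same fit, where 11.5% of all probes were higher and 11.7% lower. These lists are given as counts, with no test of a list. Of 13 other enzymes of the pathway tested, 3 were higher and 4 lower in severe WB. PGM3, of hexosamine synthesis, was at 1.01 ± 0.17, and BPGM, which makes 2,3-bisphosphoglycerate, TIGAR, a fructose 2,6-bisphosphatase, and PGM2L1, a glucose 1,6-bisphosphate synthase, were at -1.26, -1.25 and -1.05. Of 21 regulators of glycogen 1 was higher and 9 lower, led by PPP1R3A (-1.10 ± 0.14), the muscle subunit that brings protein phosphatase 1 to glycogen, PRKAB2 (-0.89), a glycogen-binding AMPK subunit, STBD1 (-0.996), which binds glycogen, and PPP1CA (-0.51), the phosphatase itself. Of 11 sugar and lactate transporters 2 were higher and 1 lower, SLC2A5 at 0.70, SLC2A6 at 1.07 and SLC37A4, the glucose 6-phosphate carrier, at -0.89. Of 16 genes of pyruvate fate 1 was higher and 7 lower, among them GPD2 (-0.73), of the glycerol phosphate shuttle, LDHD (-0.55), MPC1 (-0.72), a pyruvate carrier subunit, and DLD (-0.61), of the pyruvate dehydrogenase complex. Of 5 pentose phosphate genes 2 were higher and none lower, TALDO1 at 0.72 and PGD at 0.61.

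In the WS study no member was a DEG in any of 6 pairwise comparisons or in the trend over the 4 levels. Of all 32628 probes 0.00306% were DEGs in mild WS against non-WS and in severe WS against non-WS, and 0% in moderate WS against non-WS, in moderate against mild, severe against moderate and severe against mild WS and in the trend. At an unadjusted p of 0.05 with |FC| 1.2, 2 members passed in mild WS against non-WS (14.9% of probes), 3 in moderate WS against non-WS (14.5%), 0 in severe WS against non-WS (5.38%), 1 in moderate against mild WS (7.29%), 3 in severe against moderate WS (7.79%) and 2 in severe against mild WS (9.13%). None passed in the trend (0.877%). The median log2 fold change of the members lay between -0.05 and -0.01 in the 6 comparisons. Median processed signal lay between 76.4 and 117 on non-WS arrays, 110 and 229 on mild WS, 106 and 259 on moderate WS and 78.9 and 120 on severe WS arrays, and the levels occupied different slide positions. The part of signal and position in these comparisons was not tested.

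PFKP had the lowest adjusted p of the members. Its probe was named only through the study's list of DEGs between WS levels, so its rank is not independent of that choice. PFKP had 561, 604, 628 and 516 in non-WS, lowest, median and highest intensities of 633, 753 and 1181 in mild WS and 757, 840 and 1670 in moderate WS. It had 558, 662, 631 and 756 in severe WS. Mild and moderate WS each lay wholly above non-WS, and severe WS lay wholly below moderate WS. The share of all probes that separate in this way was not counted. The log2 fold change was 0.51 ± 0.12 (adjusted p = 0.0939) in moderate WS against non-WS and -0.34 ± 0.12 (adjusted p = 0.517) in severe against moderate WS. Mild WS replicates 5 to 7 and moderate WS replicates 5 and 6 lay on slides with no non-WS array, so these levels are not adjusted for slide while the fold changes are. Mild WS replicate 7 was the only WS-study array on its slide. The slide term fits it exactly, so it adds nothing to the WS fold changes, although it is in the printed intensities.

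HK1 phosphorylates glucose. HK1 had 2737, 2892, 1873 and 2200 in non-WS, lowest, median and highest intensities of 609, 1310 and 2443 in mild WS and 1019, 1653 and 2443 in moderate WS. It had 3058, 2801, 1859 and 1561 in severe WS. The levels overlapped, and the log2 fold change was -0.39 ± 0.13 (adjusted p = 0.198) in mild WS against non-WS. PFKM is the muscle phosphofructokinase. PFKM had 193239, 192457, 183467 and 205124 in non-WS, lowest, median and highest intensities of 182460, 200354 and 207412 in mild WS and 119144, 190748 and 194426 in moderate WS. It had 209664, 180679, 192457 and 197754 in severe WS. PFKFB3 raises the activator of this step. PFKFB3 had 3014, 1184, 8853 and 13028 in non-WS, lowest, median and highest intensities of 1622, 10943 and 32440 in mild WS and 589, 11528 and 38944 in moderate WS. It had 12967, 3436, 18938 and 886 in severe WS. It had the largest log2 fold change of the members in mild WS against non-WS, 1.88 ± 0.91 (adjusted p = 0.339) and 1.22 without non-WS replicate 2, and the levels overlapped. PFKFB4 had 18614, 24648, 18155 and 17127 in non-WS, lowest, median and highest intensities of 10556, 15770 and 19723 in mild WS and 12356, 15993 and 19482 in moderate WS. It had 21362, 23652, 22532 and 18456 in severe WS. PFKFB4 was at 0.28 ± 0.12 (adjusted p = 0.474) in severe against mild WS, where its 7 probes ranged between 0.08 and 0.58. The intensities are of the probe named only through the study's tables. In severe against moderate WS, and in severe WS against non-WS, 6 of the 7 probes had the opposite sign to that probe.

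LDHA makes the muscle subunit of lactate dehydrogenase. LDHA had 138137, 120819, 146193 and 121659 in non-WS, lowest, median and highest intensities of 56356, 114938 and 136343 in mild WS and 106545, 125800 and 187655 in moderate WS. It had 105532, 96692, 112907 and 77501 in severe WS. Severe WS lay wholly below non-WS, with a log2 fold change of -0.43 ± 0.22 (adjusted p = 0.895), and a second LDHA probe gave -0.15. The heart subunit, LDHB, did not pass the test. LDHB had 5634, 8004, 9365 and 9016 in non-WS, lowest, median and highest intensities of 7711, 9260 and 14128 in mild WS and 7933, 10379 and 19251 in moderate WS. It had 6629, 11518, 8685 and 9266 in severe WS. PGM1, which links glycogen to glycolysis, also lay wholly lower in severe WS than in non-WS. PGM1 had 135263, 136343, 123535 and 119610 in non-WS, lowest, median and highest intensities of 85813, 98824 and 128273 in mild WS and 71937, 108375 and 122318 in moderate WS. It had 113585, 110689, 104623 and 116463 in severe WS. Its log2 fold change was -0.21 ± 0.11 (adjusted p = 0.895), and a second PGM1 probe gave -0.05. How many of all probes separate severe WS from non-WS was not counted, so the separation of LDHA and PGM1 is not shown to be unusual.

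The beta subunit of phosphorylase kinase, PHKB, had the lowest p of the members in the trend, a slope of -0.12 ± 0.06 (adjusted p = 0.871) per WS level. PHKB had 17492, 14681, 17083 and 11619 in non-WS, lowest, median and highest intensities of 6678, 12694 and 18614 in mild WS and 4486, 11284 and 13370 in moderate WS. It had 9724, 12549, 15225 and 11756 in severe WS. The levels overlapped. PHKG1 lay wholly higher in mild WS than in non-WS. PHKG1 had 230844, 213908, 233780 and 224601 in non-WS, lowest, median and highest intensities of 235468, 258050 and 293535 in mild WS and 227431, 239074 and 288348 in moderate WS. It had 240667, 213176, 244808 and 230844 in severe WS. Its log2 fold change was 0.15 ± 0.09 (adjusted p = 0.466) in that comparison, and 0.08 at a second probe. How many of all probes separate these levels was not counted. PYGB, the brain phosphorylase, was at 0.64 ± 0.24 (adjusted p = 0.234) in moderate WS against non-WS, and FBP2 at -0.24 ± 0.10 (adjusted p = 0.57) in moderate against mild WS. PYGB was at 0.36 without non-WS replicate 3, and FBP2 at -0.15 without mild WS replicate 5. Over the 21 WS arrays HK2 spanned 63.1 to 339, PKM 98266 to 261903, PYGL 1418 to 3759 and GBE1 358 to 702.

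Moderate WS replicate 5 stood apart from the other WS arrays, with a median correlation of 0.929 with them, where the next lowest was 0.956. It held the highest value of all 21 arrays for 7 of 28 members and the lowest for 9, and for 13 of 17 member DEGs of the WB study its value was the extreme in the direction of severe WB. The share of all probes extreme in this array was not counted, so these counts are not shown to be particular to the members. PFKM was 119144 in it, against 188651 to 194426 in the other moderate WS arrays, PHKB was 4486 against 10700 to 13370, and FBP2 was 31808 against 54641 to 68855. Its summed fibroblast and matrix markers, at 420195, and macrophage markers, at 207134, ranked highest of the 21 arrays, and its fast fiber markers, at 866119, lowest. Its median processed signal, at 259, was also the highest of the 21, and the part of signal was not tested. No member was a DEG in any WS comparison without this array either.

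**Figure D5:**
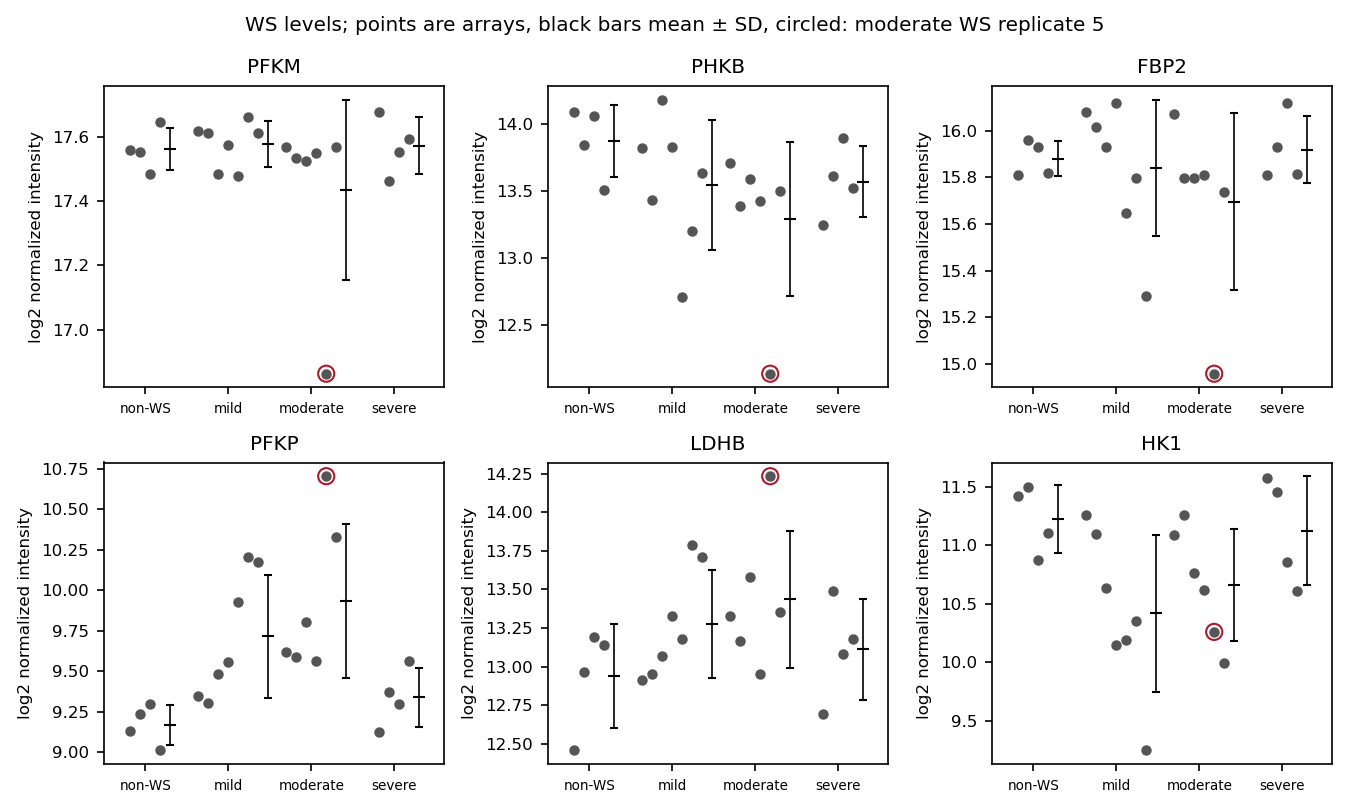
Log2 normalized intensity (y axis) of 6 members at the WS levels from non-WS to severe WS (x axis); points are arrays, black bars the mean ± SD, and moderate WS replicate 5 is circled. It is the lowest array for PFKM (119144 on the linear scale), PHKB and FBP2 and the highest for PFKP and LDHB.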

How the data were processed

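Total RNA of chicken pectoralis major was labeled with a single dye and hybridized to custom Agilent arrays, 40 arrays on 5 slides of 8. The authors quantified the spots with Feature Extraction 10.7.1.1, and the deposited intensity of each array, the background-subtracted processed signal, was not normalized between arrays. The value table deposited for the series holds intensities that the authors normalized for the WS arrays only, and was used as an alternative.

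A probe entered a study only if each of its arrays measured it well above background, without outlier flag and with a processed signal of at least 20, which left 32628 probes in the WS study and 34518 in the WB study. The 2 studies were quantile-normalized apart, and log2 values were modeled in limma 3.58.1 (R 4.3.3). Slides entered the model as fixed effects, in place of the batch adjustment of the study. P-values were adjusted over all probes by the Benjamini-Hochberg method, and DEGs had an FDR of 0.05 or less and |FC| of 1.2 or more. The comparison over all WB pairs is the equal-weight mean of the 3 pair differences. The scripts were tested on simulated data. The members and gene lists were chosen with earlier results of these data known. Array values were given for up to 8 DEGs by p, or the 3 members with the lowest p where fewer than 3 were DEGs, and for 11 fixed members; further values were added after they were seen.

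Probe names were matched to RefSeq by symbol (27 genes), synonym (2) or the study's own tables (2, of which 1 was also matched by symbol). Alternatives covered background correction (normexp, offset 50, run on median spot signals since means were not used here), scaling to the 75th percentile, the deposited values, the filters, the slide, the thresholds, the study's per-probe test, the probe and each array left out. A planned count of promoter motifs and the ratio of PFKL to PFKM were not run. Sample numbers limit the precision. WS levels of the WS arrays were taken from the sample titles, since another label field names the same levels as wooden breast.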

Additional observations from a re-analysis of the deposited data

Results flagged for a closer look

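Of 170 groups of 4 to 10 arrays tested for a single far value, 12 held one, where chance gives about 1 in 20. The value given is the gap of the far array to its nearest neighbor as a share of the group's range. In moderate WS, replicate 5 was lowest for PFKM (0.938, at 119144 against 188651 to 194426), PHKB (0.796, at 4486 against 10700 to 13370), TPI1 (0.729, at 120307 against 160990 to 179403), FBP2 (0.701, at 31808 against 54641 to 68855) and UGP2 (0.629, at 11080 against 20083 to 28543). This is the array with the highest macrophage and matrix marker sums and the highest median processed signal of the WS study. The part of the markers and of the signal was not tested. Replicate 6 of moderate WS was highest for PGK1 (0.912, at 251200 against 164621 to 170858).

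Mild WS replicate 7 was highest for ALDOC (0.616, at 31955 against 10504 to 16102), replicate 6 for UGP2 (0.760, at 54490 against 22393 to 27727), and replicate 1 lowest for PGAM1 (0.610, at 205789 against 240667 to 265960). Severe WS replicate 2 was lowest for PGAM1 (0.844, at 212268 against 247049 to 254053) and non-WS replicate 4 highest for PGK1 (0.923, at 175487 against 155629 to 157076). In the WB study, non-WB replicate 3 at 49 d with moderate WS was lowest for PHKA1 (0.878, at 33011 against 44127 to 45942).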

How the results depend on the processing

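Over all WB pairs the 18 members became 10 at |FC| of 1.5, 0 with the median array signal as a covariate and 0 without both severe WB arrays at 49 d with mild WS, the last 2 chosen after seeing the data, and 11 to 19 when each array was left out. In the 49 d mild WS pair the 12 became 22 at an FDR of 0.2, 0 by the methods' t-test and 0 to 19 with each array left out, 19 being without severe WB replicate 3 at up to 45 d. At up to 45 d the count was 0 to 13 with each array left out, and for the difference between the 49 d pairs 0 to 1, both highest counts being without that array, and 2 at an FDR of 0.2. At that FDR 1 member passed in mild WS and 1 in moderate WS against non-WS. The covariate fit held slide and WB status but not age or WS level, and the fit without both arrays gave the mean of the other pairs. Counts in this paragraph stand without the share of all probes, so they are not shown to be particular to the members.

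The deviations of same-numbered arrays had r of -0.30 to 0.38 over 41 pairs of the WB study (median -0.003). In the WS study r was -0.23 to 0.33 over 26 pairs (median 0.066). Differently numbered arrays were not compared, so whether the numbers pair the samples was not settled. With the replicate block in place of the slide, 7 members were DEGs in the 49 d mild WS pair and 18 over all WB pairs. The share of all probes is not set beside these counts either.

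The LDHB over LDHA difference was 1.37 to 1.87 and the PFKP over PFKM difference 0.71 to 0.95 with each array left out, while HK1 over HK2 was -0.18 to 0.04, reversed without severe WB replicate 3 at 49 d with moderate WS (0.036). Among members not called over all WB pairs, the sign turned for HK2 (0.30 in the deposited values, -0.20 to 0.038 with each array left out), GBE1 (0.21 in the deposited values, 0.048 without both severe WB arrays), PFKFB3 (0.53 with the covariate, 0.70 without both arrays) and PFKFB4 (-0.11 at the 75th percentile scaling, -0.021 without both arrays). HK2 was 0.011 without non-WB replicate 1 and 0.038 without severe WB replicate 2, both at 49 d with moderate WS, and 0.016 without severe WB replicate 1 at up to 45 d. In WS the second probe gave -0.17 for PFKFB4 and 0.031 for LDHA in severe against moderate WS, and the 75th percentile scaling 0.16 for PGK1 in severe against mild WS. For the WB arrays the deposited values were not normalized between arrays, and the median processed signal was 209 on severe WB against 160 on non-WB arrays. The causes were not tested.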
